A study of Mus musculus with 4 samples.

Results

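T cells and dendritic cells were recovered as small populations among 8880 single cells of the mouse epididymis and vas deferens. The cells were taken by the authors' deposited cell type assignment: the T cell population holds 44 cells and the dendritic population 21 cells, together 65 cells, and both are compared with each other and with the 104 cells of the main macrophage population. The 44 T cells carried 110335 unique molecular identifiers (UMIs, each standing for 1 captured RNA molecule), the 21 dendritic cells 86510 and the 104 macrophages 306680. The median cell held 2206.5 UMIs among T cells, 5055 among dendritic cells and 2824.5 among macrophages.

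T cells recognise antigen through a T cell receptor that is displayed and relayed by the CD3 chains. Dendritic cells take up antigen, load it onto MHC class II molecules and, once matured, follow the receptor Ccr7 to lymph nodes, where they present it to T cells. In the epididymis and vas deferens, immune cells of these kinds face a particular task, since sperm carry proteins that appear only at puberty, after self tolerance has been set up, and must be tolerated while ascending microbes are fought.

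The tissue came from male FVB/NJ mice of 10 to 12 weeks. The caput, corpus and cauda epididymis and the vas deferens were dissected from 4 mice, and the 8 pieces of each region were pooled, freed of much of their sperm, digested with enzymes and run as a single 10x library that reads the 3′ ends of transcripts. The 4 groups are thus 4 libraries without replicates, animals cannot be told apart, and the regions were not tested against each other. The populations had been built by clustering these same counts, so no difference between them was tested either: the values that follow describe the populations, and their 95% intervals cover counting error only.

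Levels are UMIs of a gene per 1000000 UMIs of a population, with exact Poisson intervals. A single UMI is far from a reliable level in populations this small, and 3 UMIs, the floor used for genes at 0, stand for 27.2 UMIs per 1000000 in T cells, 34.7 in dendritic cells and 9.78 in macrophages. The 4 libraries held between 1433 and 3506 cells. Ribosomal protein genes took 35.6% of the UMIs of T cells, 36.6% of those of dendritic cells and 21.8% of those of macrophages. No T cell or dendritic cell shared its barcode with a cell of another library, against 1 macrophage and 86 cells in all. Doublets called from simulated cell pairs numbered 178 of the 8880 cells (2.00%), a number set by the assumed doublet rate. Of these, 0 were T cells, 0 dendritic cells and 0 macrophages. The cells with many macrophage genes described below were thus not called, so mixed cells are not excluded.

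The label of the T cells was checked cell by cell against the CD3 chains, which were found in most cells of the epididymis and few of the vas deferens. Of the 44 cells, 22 (50.0%, 34.6% to 65.4%) had at least 1 UMI of *Cd3d*, *Cd3e*, *Cd3g* or *Cd247*. These were 19 of the 23 cells of the 3 epididymal libraries (82.6%, 61.2% to 95.05%) and 3 of the 21 cells of the vas deferens library (14.3%, 3.05% to 36.3%). Depth differed as well, with a median of 3112 UMIs in the epididymal cells and 954 in the cells of the vas deferens. After drawing 1000 UMIs from each of the 30 cells that had as many, which left out 14 cells, a CD3 UMI was kept in 20 of 30 cells (66.7%, 47.2% to 82.7%), namely 18 of 21 from the epididymis and 2 of 9 from the vas deferens. Averaged over all possible draws the shares were 59.3%, 78.7% and 14.2%. The vas deferens thus stayed below the epididymis at equal depth. The background was low: 0 of 104 macrophages, 0 of 21 dendritic cells and 2 of 917 basal cells (median 5654 UMIs) had a CD3 UMI, the count of 0 allowing up to 2.88% of macrophages when, as for every count of 0 here, 3 cells are taken as the limit.

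**Figure D1:**
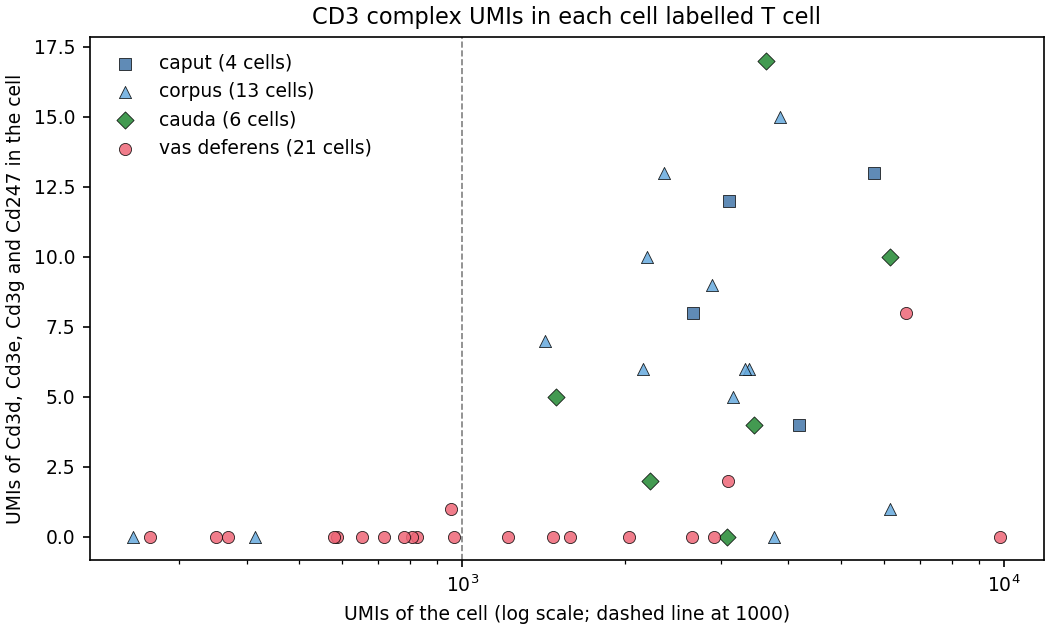
UMIs of the 4 CD3 chain genes (y axis) against all UMIs of the cell (x axis, log scale) for each of the 44 cells labelled T cell, with 1 symbol per library. The 19 epididymal cells with a CD3 UMI reach 17 UMIs, and 18 of the 21 cells of the vas deferens lie at 0, also among the cells right of the dashed line at 1000 UMIs.

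The other 18 cells of the vas deferens carried various other genes. Cytotoxic and natural killer (NK) genes, 3 or more of a list of 23, were found in 4 cells without a CD3 UMI. In 3 further cells, 4 to 6 genes of a list of macrophage markers were detected with 10, 33 and 34 UMIs, mainly *Lyz2* (lysozyme), and no cytotoxic gene. Another 4 cells, with 369 to 826 UMIs in all, held 3 to 6 UMIs of endothelial markers. In 10 cells of the vas deferens, against 1 in the epididymis, none of the CD3, T cell receptor signalling, cytotoxic and type 17 genes had a UMI. In the first round of clustering 43 of the 44 T cells had been grouped with 239 endothelial cells. One epididymal cell, from the corpus, held 146 UMIs of 16 macrophage genes. The part of such cells in the levels was not tested beyond the values without them. Ratios of T cells are therefore given for all 44 cells and, for the genes and lists described in most detail, also for the 23 epididymal cells against the same dendritic cells and macrophages, a comparison added after the values were seen. Where the cells of the vas deferens are included they are also called T-labelled cells.

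T cells were found in every library, whereas dendritic cells came almost wholly from the vas deferens. The T-labelled cells numbered 4 in the caput (0.279% of the cells of that library, 0.0761% to 0.713%), 13 in the corpus (0.559%, 0.298% to 0.954%), 6 in the cauda (0.371%, 0.136% to 0.806%) and 21 in the vas deferens (0.599%, 0.371% to 0.914%). These 4 intervals overlap. Counting only cells with a CD3 UMI, the caput gave 4, the corpus 10, the cauda 5 and the vas deferens 3. Dendritic cells numbered 0 of 1433 cells in the caput, which allows a share of up to 0.209%. The corpus and the cauda gave 1 each, and the vas deferens 19 (0.542%, 0.327% to 0.845%). The vas deferens library thus gave 90.5% of the dendritic cells (69.6% to 98.8%), 65.4% of the macrophages (55.4% to 74.4%) and 47.7% of the T-labelled cells (32.5% to 63.3%), while it held 39.5% of all cells. Dissociation, capture and the animals cannot be told apart from the region in these shares.

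**Figure D2:**
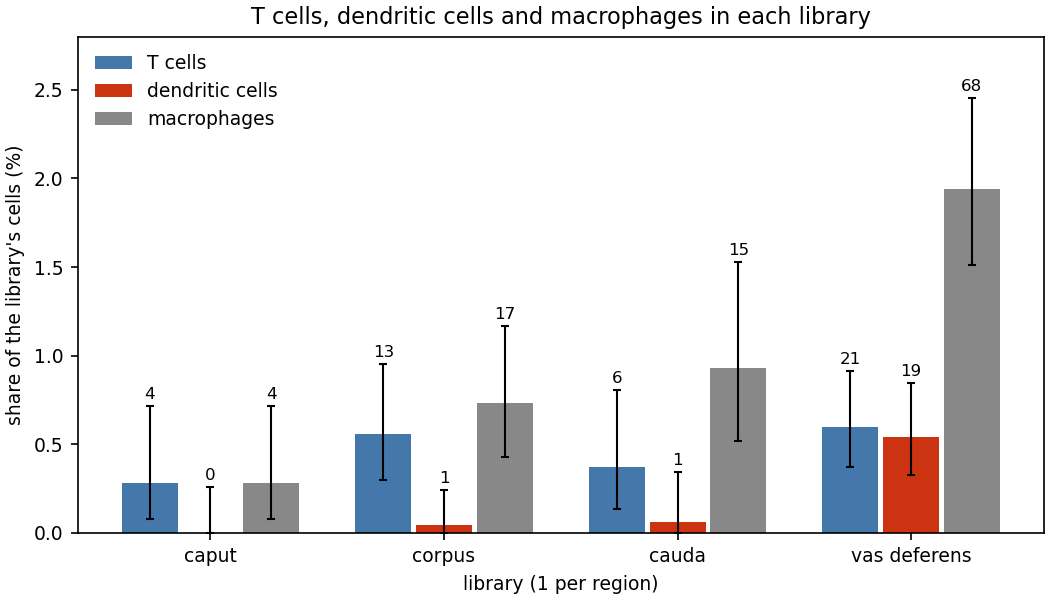
Share of the cells of each library (y axis, percent) that were T cells, dendritic cells or macrophages, with Clopper-Pearson 95% intervals for counting error and the number of cells above each bar. Dendritic cells stand at 0, 1, 1 and 19 cells, and T cells at 4, 13, 6 and 21.

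UMIs of the CD3 complex were found in T cells and in neither dendritic cells nor macrophages. *Cd3g*, its gamma chain, had 22 UMIs in caput cells, 38 in corpus cells, 19 in cauda cells and 3 in cells of the vas deferens, in 20 cells in all. *Cd3d*, the delta chain, had 5, 19, 11 and 6 UMIs in the same order, and *Cd3e*, the epsilon chain, 6, 14, 6 and 2. The 3 genes lie side by side on chromosome 9 (GRCm38), *Cd3g* at 44969572 to 44980431 on the minus strand, *Cd3d* at 44981786 to 44987339 on the plus strand and *Cd3e* at 44998740 to 45009627 on the minus strand. All 3 were carried mainly by the epididymal cells. The level of *Cd3g* was 743 UMIs per 1000000 in T cells (591 to 922), 1111 in the epididymal cells alone, and at least 21.4-fold that in dendritic cells and at least 76.0-fold that in macrophages when 3 UMIs were set for their 0. *Cd247*, the zeta chain, had 13 UMIs in 8 epididymal cells and 0 in the vas deferens. All 3 chains with enough UMIs to be considered, at least 20 over both populations, were at least 4-fold higher in T cells than in dendritic cells, as were 164 of 1101 genes (14.9%). That count was 96 of 828 (11.6%) with the epididymal T cells alone, 98 with CD3-positive cells alone and 12 without the vas deferens library, which leaves 2 dendritic cells. The same 3 chains were higher than in macrophages, as were 157 of 2293 genes (6.85%), or 139 of 2075 (6.7%) with the epididymal T cells. They stayed among the higher genes of the epididymal cells in both comparisons.

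Genes that relay the T cell receptor signal were spread more evenly over the libraries. *Lck*, the kinase that phosphorylates the CD3 chains, had 2, 5, 8 and 8 UMIs in caput, corpus, cauda and vas deferens, in 15 cells, and none in dendritic cells and macrophages. *Zap70*, the kinase that docks on phosphorylated CD3, had 3, 3, 2 and 2 UMIs. *Lck* is also used by NK cells, and in the vas deferens *Lck* was found in 4 cells against 3 with a CD3 UMI. The adaptor *Lat* had 12 UMIs, all in the caput and corpus. Of 21 signalling genes measured, 4 had enough UMIs against dendritic cells. All 4, *Lck*, *Fyb* and *Ptprcap* among them, were higher in T cells, where 14.9% of all genes were. Against macrophages 3 of 5 were higher (all genes 6.85%), and *Fyb* was not among them. In macrophages the list stood at 414 UMIs per 1000000, with a UMI in 61 of 104 cells. With the epididymal cells alone, 0 had enough UMIs against dendritic cells. Against macrophages 0 of 2 were higher (all genes 6.7%). The whole list reached 2227, 1897, 1746 and 1503 UMIs per 1000000 in the T-labelled cells of caput, corpus, cauda and vas deferens. The CD3 list fell to 280 in the vas deferens from between 1896 and 2354 in the epididymis.

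Coreceptors, which split conventional T cells into helper and killer classes, were nearly silent. *Cd4* had 1 UMI, in a cell of the vas deferens, and *Cd8a* had 5 UMIs in 2 cells of the cauda. With 22 CD3-positive cells at a median of 3138.5 UMIs, low levels of either were not detectable at this depth. *Cd8b1*, *Foxp3* and the constant genes of the gamma and delta receptor chains have no row in the table of 16892 genes and are not analysed here. *Icos*, a costimulatory receptor of activated T cells, had 26 UMIs in 12 cells, 15 of them in 4 cells of the vas deferens, *Cd28*, the classical one, 3, and *Ctla4*, its inhibitory counterpart, 6. *Icos* was the only 1 of a list of 15 regulatory and helper genes counted as higher than in dendritic cells, of 2 considered (all genes 14.9%). With the epididymal cells alone 0 were considered.

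*Gzmb*, *Nkg7*, *Cd7* and *Xcl1* had most of their UMIs in the T cells of the epididymis. *Gzmb*, granzyme B, had 16 UMIs in 1 caput cell, 81 in 7 corpus cells, 33 in 5 cauda cells and 11 in 4 cells of the vas deferens. *Nkg7*, a protein of cytotoxic granules, had 2, 23, 16 and 0 UMIs, and *Cd7*, a surface protein of T and NK cells, had 5, 44, 12 and 3. *Xcl1*, a chemokine secreted by activated T and NK cells, had 1, 38, 16 and 5 UMIs in 12 cells. In all 4 genes the vas deferens, with the most T-labelled cells, had fewer UMIs than the corpus and the cauda. *Gzma*, granzyme A, went the other way, with 0, 9, 3 and 17 UMIs in 6 cells. The whole list of 23 cytotoxic and NK genes stood at 3373, 10021, 14068 and 3822 UMIs per 1000000 in caput, corpus, cauda and vas deferens. The level of *Gzmb* was 1278 UMIs per 1000000 (1076 to 1507) in all T-labelled cells, 1829 in those of the epididymis and 280 in those of the vas deferens, against 1 UMI in macrophages (392-fold, 69.2 to 15588, and 561-fold, 98.9 to 22320, with the epididymal cells) and 0 in dendritic cells. Of these genes 7 of 11 considered were higher in T cells than in dendritic cells (all genes 14.9%) and 10 of 12 higher than in macrophages (all genes 6.85%), with 0 lower in either. With the epididymal cells 5 of 9 were higher than in dendritic cells (all genes 11.6%) and 1 lower (all genes 12.7%). Of 9 considered against macrophages, 7 were higher (all genes 6.7%). *Prf1*, perforin, the pore former of killer cells, had only 1 UMI in T cells, in the vas deferens, and 6 in 1 macrophage-labelled cell. *Il2rb*, the chain that the receptors for interleukin 2 and interleukin 15 share, had 8, 17, 9 and 7 UMIs in 22 cells and 1 UMI in the macrophages.

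**Figure D3:**
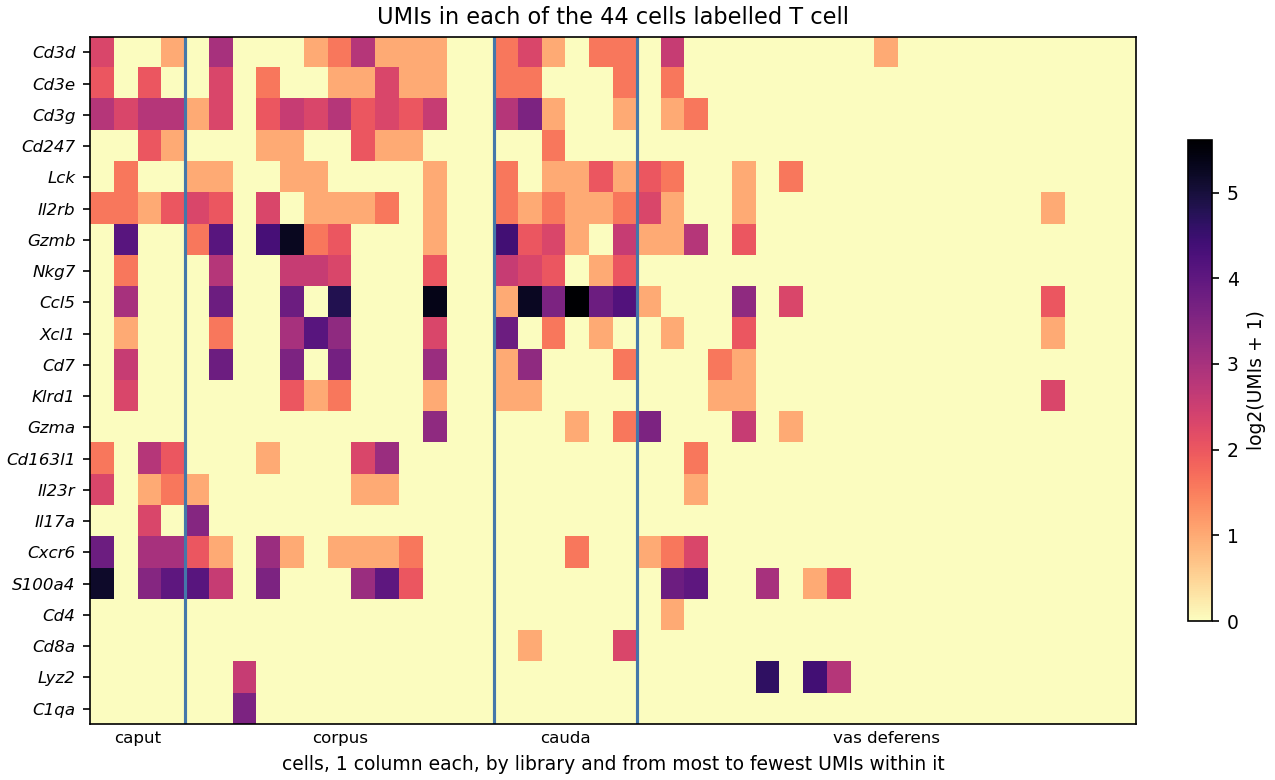
UMIs (colour, log2 of UMIs + 1) of 22 genes in each of the 44 cells labelled T cell, ordered by library and by UMIs within a library. The upper rows (CD3 chains) are filled in the epididymal libraries and nearly empty in the vas deferens, and the rows of *Cd163l1*, *Il23r* and *Il17a* are filled in 8 cells, 3 of which also hold *Gzmb*, *Nkg7* or *Ccl5*.

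Within the T cells, some cells held cytotoxic genes and some held genes of interleukin 17 producers. The genes were chosen after the values were seen, so the counts are a description, and the overlap was not tested. At least 1 UMI of *Gzmb*, *Nkg7* or *Ccl5* was found in 20 of 44 cells and at least 1 UMI of *Cd163l1*, *Il23r* or *Il17a* in 8, with 3 cells holding both kinds, 3 of the 8 beside 20 of all 44. *Cd163l1*, a scavenger receptor known from gamma delta T cells, had 11 UMIs in 3 of the 4 caput cells, 13 in 3 corpus cells, 0 in the cauda and 2 in 1 cell of the vas deferens. *Il23r*, the receptor for the cytokine that sustains interleukin 17 producers, had 7, 3, 0 and 1 UMIs. *Il17a*, the cytokine itself, had 14 UMIs in 2 cells, 4 in a caput cell and 10 in a corpus cell. All 8 of these cells had a CD3 UMI, between 1 and 13 each.

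The sets were then formed from whole lists, taking 3 or more genes of the list of 23 cytotoxic genes or of the list of 10 gamma delta and type 17 genes. Only the first set was found in 17 cells (1 caput, 5 corpus, 6 cauda, 5 vas deferens; 60132 UMIs) and only the second in 6 cells (3 caput, 2 corpus, 0 cauda, 1 vas deferens; 19172 UMIs), with 2 cells in both. Genes outside both lists also split between them. *S100a4*, a calcium-binding protein of motile cells, had 18 UMIs in the 17 cytotoxic cells and 98 in the 6 others, in 6 of 6 cells. *S100a6*, its relative, had 58 and 140 UMIs, and *Cxcr6*, a homing receptor of tissue-resident T cells, 8 and 33. *Vps37b*, a subunit of the endosomal sorting machinery, went the other way with 141 UMIs in 17 of 17 cytotoxic cells and 10 in 4 of the 6 others, and *Lck* with 22 and 0. *Cd3g* was found in both, with 48 and 27 UMIs. The cells of the 2 sets also came from different libraries, so set and region cannot be told apart.

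The level of *S100a4* in T cells was 1423 UMIs per 1000000 (1209 to 1664), 13.2-fold those of macrophages (9.04 to 19.9) and 17.6-fold those of dendritic cells (8.34 to 44.5). With the epididymal cells the ratios were 15.4 (10.4 to 23.4) and 20.5 (9.65 to 52.1). *S100a4* had 60, 58, 0 and 39 UMIs in caput, corpus, cauda and vas deferens, so it had no UMI in the library whose T cells also had none of *Cd163l1*, *Il23r* and *Il17a*. Its level was 1660 in the epididymal cells and 993.7 in those of the vas deferens. *Vps37b* had 7, 66, 56 and 53 UMIs in 26 cells, a level of 1650 (1419 to 1907) and 16.9-fold that of macrophages (11.4 to 25.7), or 18.6-fold with the epididymal cells (12.4 to 28.6). *Ifngr1*, the receptor chain that binds interferon gamma, had 10, 28, 19 and 16 UMIs in 26 cells. Its level of 662 (519 to 832) was 7.00-fold that of macrophages (4.49 to 11.2) and 7.15-fold that of dendritic cells (3.45 to 17.2), with 802 in the epididymis, 8.48-fold that of macrophages (5.33 to 13.8), and 408 in the vas deferens. The ligand *Ifng* had 14 UMIs in 7 T-labelled cells, 9 of them in the cauda, and none in dendritic cells and macrophages. *Rora*, a nuclear receptor of type 17 and innate-like lymphocytes, had 60 UMIs in 17 cells and was 9.81-fold higher than in macrophages (5.65 to 17.9), or 10.9-fold with the 43 UMIs of the epididymal cells (6.10 to 20.4).

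When set against all 33 other populations of the tissue, 7 of 662 genes considered (1.06%) were at least 4-fold higher in T cells than in each of them: *S100a4*, *Gzmb*, *Cd3g*, *Vps37b*, *Cd7*, *Xcl1* and *Ifngr1*. The count depended on the shallow population of basal macrophages, whose floor is 128 UMIs per 1000000, and rose to 17 without it. With the epididymal T cells alone it was 11. For dendritic cells 4 of 436 genes (0.917%) were highest, namely *Ccl17*, *Pkib*, *Ccr7* and *Timd4*, and 10 without the basal macrophages. Within the vas deferens library alone both counts were 0, and leaving out any 1 of the 4 libraries lowered the count of T cells to between 0 and 3. Fewer libraries also make the other populations shallower and so raise their floors. The part of these floors in the lower counts was not tested.

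Many cell division genes were detected together in only a few T-labelled cells. At least 10 of 17 cell division genes were detected in 4 T-labelled cells, which also were among the deepest with 5752, 6159, 6594 and 9841 UMIs, and in 0 dendritic cells and 0 macrophages. *Mki67*, a marker of cycling cells, had 1, 2, 1 and 4 UMIs in them. The deepest, from the vas deferens, had 11 cytotoxic genes, 11 UMIs of *Gzma* (granzyme A) and no CD3 UMI. Of 19 genes known to respond to tissue dissociation, 4 of 17 considered (*Fos*, *Jun*, *Hspa1b* and *Dnajb1*) were higher in T cells than in dendritic cells, where 14.9% of all genes were, and 1 was lower. With the epididymal cells 6 of 16 were higher (all genes 11.6%) and 1 lower (all genes 12.7%).

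T-labelled cells of the vas deferens differed from epididymal T cells in more than CD3. Of 662 genes considered, 15 (2.27%) were at least 4-fold higher in the vas deferens and 33 (4.98%) in the epididymis. Higher in the epididymis were *Cd3g* (79 against 3 UMIs), *Cd7* (61 against 3), *Nkg7* (41 against 0), *Ccl5* (227 against 17), *Gzmb* (130 against 11) and *Xcl1* (55 against 5). So were *Tmem176a* (46 against 3) and *Wfdc10* (32 against 0, in 5 cells), which the paper describes in principal cells. *Crisp1*, an epithelial marker, had 50 UMIs in the epididymal cells, 5.26-fold the macrophage level (3.41 to 8.15). Whether such epithelial UMIs came from the T cells themselves was not tested. Higher in the vas deferens were *Ifitm3* (42 against 2 UMIs) and *Ifitm2* (31 against 0), interferon-induced membrane proteins, *Ly6a*, a surface antigen shared with endothelial cells (16 against 4), and *Hif1a*, the hypoxia-inducible factor (21 against 5). Each of these 4 was found in 6 to 8 of the 21 cells. These UMIs come from totals of 39248 in the vas deferens and 71087 in the epididymis. Of the 44 cells, 17 had no CD3 UMI and fewer than 3 cytotoxic or type 17 genes, and 14 of these came from the vas deferens. These 17 cells held all 31 UMIs of *Ifitm2*, 31 of *Ifitm3*, 2 of *Ly6a* and 10 of *Hif1a*. The 17 cells with only the cytotoxic set held 0, 13, 12 and 15.

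Every dendritic cell carried antigen presentation genes. *H2-Aa*, the alpha chain of the class II molecule I-A, had 9 UMIs in the corpus cell, 52 in the cauda cell and 646 in the 19 cells of the vas deferens, at least 6 in every cell. *H2-Ab1*, the beta chain, had 22, 122 and 934 UMIs, and *Cd74*, the invariant chain that guides class II molecules to the endosome, 137, 440 and 2624. All 3 genes were found in all 21 cells. *H2-Eb1*, the beta chain of I-E, had 48 UMIs in 15 cells, *H2-DMa*, part of the peptide loading complex, 70 in 18 cells, and *H2-Oa*, part of its inhibitor, 10 in 7 cells. The level of *H2-Aa* was 8172 UMIs per 1000000 (7581 to 8798), 45.1-fold that of T cells (29.0 to 74.3), and that of *H2-Ab1* 12461 (11728 to 13228), 62.5-fold (41.1 to 100.1). All 5 class II genes considered were higher in dendritic cells than in T cells, as were 96 of 1101 genes (8.72%).

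Against macrophages, none of the 8 class II genes considered reached 4-fold in either direction, although their median log2 ratio of 0.88 stood above that of all genes, -0.31. *H2-Aa* was 1.68-fold higher than in macrophages (1.54 to 1.84) and *H2-Ab1* 2.33-fold (2.15 to 2.51). Within the vas deferens library the levels of *H2-Aa* were 8163 and 4138 UMIs per 1000000, and those of *H2-Ab1* 11802 and 4997. A UMI of *H2-Aa*, *H2-Ab1* or *H2-Eb1* was kept in 18 of 18 dendritic cells drawn to 1000 UMIs (100%, 81.5% to 100%), in 76 of 89 macrophages (85.4%, 76.3% to 92.0%), in 4 of 30 T cells (13.3%, 3.76% to 30.7%) and in 12 of 871 basal cells (1.38%). Without thinning the shares were 21 of 21, 85 of 104, 7 of 44 and 51 of 917. In T cells the class II list held 144 UMIs, 80 of them in the corpus cell with macrophage genes and 26 in 1 cauda cell. Class I genes did not separate the populations, since 0 of 10 considered differed 4-fold between dendritic cells and macrophages and 0 of 5 between T cells and dendritic cells.

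Class II genes are known to share a short promoter element, the Y box, which binds the factor NF-Y beside the platform for the class II transactivator. The 150 bases before the RefSeq start of 4 of them on chromosome 17 (GRCm38.p6, the C57BL/6J reference and not the FVB/NJ genome) are shown 5′ to 3′ on the strand of the gene, to show the element in class II genes of differing UMI counts, *H2-Aa* with 707 in dendritic cells and *H2-DMb1* with 13. They span 34287824 to 34287973 for *H2-Aa* on the minus strand and, on the plus strand, 34305717 to 34305866 for *H2-Eb1*, 34153041 to 34153190 for *H2-DMb1* and 34092229 to 34092378 for *H2-Oa*. Capitals mark the letters TGATTGG, the core of the Y box.
H2-Aa: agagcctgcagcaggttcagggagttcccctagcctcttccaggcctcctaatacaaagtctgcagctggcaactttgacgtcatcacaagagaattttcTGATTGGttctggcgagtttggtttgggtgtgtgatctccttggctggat
H2-Eb1: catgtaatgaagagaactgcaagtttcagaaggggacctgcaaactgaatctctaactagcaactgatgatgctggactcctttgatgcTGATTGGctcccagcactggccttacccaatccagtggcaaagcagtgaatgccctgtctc
H2-DMb1: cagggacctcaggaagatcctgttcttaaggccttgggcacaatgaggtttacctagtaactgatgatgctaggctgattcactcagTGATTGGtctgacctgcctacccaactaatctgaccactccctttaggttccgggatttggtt
H2-Oa: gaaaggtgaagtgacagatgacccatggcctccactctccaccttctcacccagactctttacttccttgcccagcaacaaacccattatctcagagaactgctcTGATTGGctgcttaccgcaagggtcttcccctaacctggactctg

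The element lay 50, 61, 63 and 45 bases before the start in these 4 genes, always on the strand of the gene. Both strands were searched for TGATTGG in the 150 bases before the start of every gene in the RefSeq table. It was found in 7 of the 8 class II genes matched there, *H2-DMa* being the exception, and in 1877 of all 32851 promoters (5.71%). *H2-Ab1*, *Cd74* and *Ciita* are not in that table. A match describes the letters and no binding was measured.

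Several lineage genes were higher in dendritic cells than in macrophages. *Btla*, an inhibitory receptor of lymphocytes and dendritic cells, had 23 UMIs in 11 of the 19 cells of the vas deferens, against 1 UMI in macrophages (81.5-fold, 13.2 to 3359) and 2 in T cells. *Flt3*, the receptor on which conventional dendritic cells depend, had 7 UMIs in 6 cells and none in T cells and macrophages, at least 8.27-fold the macrophage level at the floor. *Kit*, the stem cell factor receptor, had 9 UMIs in 6 cells, 10.6-fold the macrophage level (2.65 to 61.1), and *Zbtb46*, a transcription factor of the lineage, 2 UMIs. *Gm2a*, a lysosomal lipid carrier, had 2, 5 and 68 UMIs in the corpus, cauda and vas deferens and was 4.29-fold higher than in macrophages (3.02 to 6.10). *Pkib*, an inhibitor of protein kinase A, had 0, 18 and 72 UMIs (13.3-fold, 8.40 to 21.8), and *Timd4*, a phosphatidylserine receptor, 3, 0 and 76 (10.4-fold, 6.63 to 16.7). *Cst3*, cystatin C, was found in every cell at 25847 UMIs per 1000000, 4.69-fold the macrophage level (4.40 to 5.00). Genes outside the dendritic lists were also among the largest ratios, such as *Serpinb9*, an inhibitor of granzyme B, with 74 UMIs in 14 cells (21.9-fold, 11.8 to 44.2), and *Kdm4a*, a histone demethylase, with 19 in 8 cells (33.7-fold, 8.12 to 298). Of 16 dendritic core genes measured, 3 of 6 considered were higher than in macrophages, as were 58 of 1988 genes (2.92%), and 0 were lower. The 3 were *Btla*, *Gm2a* and *Napsa*, and *Flt3*, *Kit* and *Zbtb46* had too few UMIs to be considered. *Kmo*, *Bcl11a* and *Spib*, of the same list, had 0 UMIs in dendritic cells but were detected in macrophages. Draws to 1000 UMIs kept *Pkib* in 9 of 18 dendritic cells and 5 of 89 macrophages, and *Timd4* in 9 of 18 and 6 of 89, against 17 of 21, 11 of 104, 16 of 21 and 17 of 104 without thinning.

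**Figure D4:**
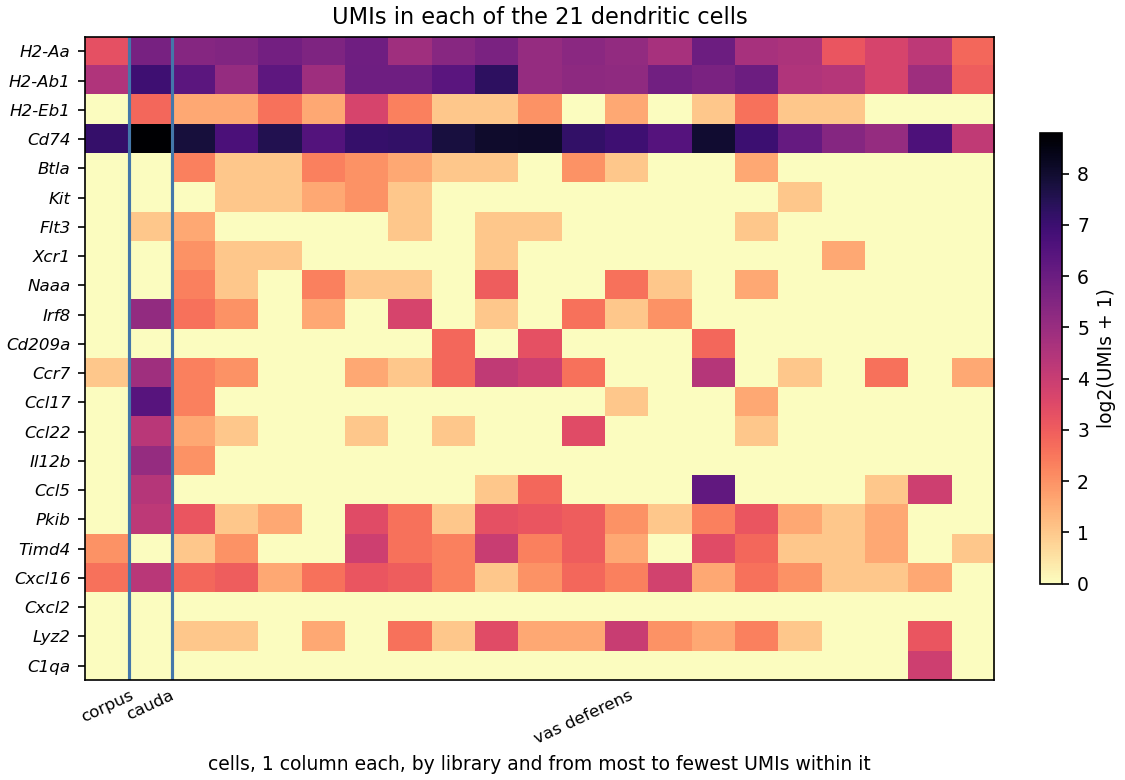
UMIs (colour, log2 of UMIs + 1) of 22 genes in each of the 21 dendritic cells, ordered by library and by UMIs within a library. The rows of *H2-Aa*, *H2-Ab1* and *Cd74* are filled in all 21 cells, *Cxcl2* is empty in all of them, and the single cauda cell stands out in *Ccl17*, *Il12b* and *Irf8*.

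Some markers of both conventional dendritic cell types were present, while several of type 2 were at 0. *Xcr1*, the chemokine receptor of the cross-presenting type 1, had 8 UMIs in 5 cells and *Cd209a*, a lectin of type 2, 21 UMIs in 3 cells, with 0 cells having both. *Naaa*, a lipid amidase of type 1, had 26 UMIs in 9 cells and was 18.4-fold higher than in macrophages (6.97 to 61.5), *Clec9a*, the type 1 receptor for dying cells, 2 UMIs, and *Irf8*, the transcription factor of type 1, 66 UMIs in 9 cells, 34 of them in the cauda cell. At least 4 of 15 type 1 genes were detected in 13 of the 21 cells and at least 3 of 12 type 2 genes in 2. The 3 cells with *Cd209a* had 1, 1 and 2 type 1 genes. These thresholds differ between the lists and were chosen after the values were seen, so the counts do not rank the 2 types. At least 1 UMI of the type 1 list was found in 20 of 21 dendritic cells and 94 of 104 macrophages. For the type 2 list these were 17 and 79 cells. Of the type 1 genes 2 of 7 considered were higher than in macrophages, and of the type 2 genes 0 of 6, beside 2.92% of all genes. Genes of plasmacytoid dendritic cells were low, at 27 UMIs of 5 genes in 9 cells.

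*Ccr7*, the receptor of matured dendritic cells, was found in 14 of the 21 cells. It had 1 UMI in the corpus cell, 28 in the cauda cell and 80 in 12 cells of the vas deferens, between 1 and 20 per cell. The 7 other cells of the vas deferens had none. Its level of 1260 UMIs per 1000000 (1035 to 1520) was 7.16-fold that of macrophages (5.12 to 10.1), and in the vas deferens alone 1011 stood against 153. *Cd80*, a ligand of CD28, was found in 14 cells at 6.45-fold the macrophage level (2.94 to 14.9), whereas *Cd86*, its partner, stood at 370 against 505 UMIs per 1000000 and *Cd40*, the receptor of T cell help, at 474 against 277. *Cd83*, another maturation marker, was found in all 21 dendritic cells, but in macrophages its level was 1836 against 1595. *Fscn1*, fascin, had 0 UMIs in dendritic cells and 35 in macrophages. Of 24 maturation genes, 11 of 16 considered were higher in dendritic cells than in T cells (all genes 8.72%), 4 of 18 higher than in macrophages (all genes 2.92%) and 1 lower (all genes 7.7%).

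The chemokines that matured dendritic cells send to T cells came largely from 1 cell. The single cauda cell, with 6627 UMIs, held 86 of the 93 UMIs of *Ccl17*, 19 of the 35 of *Ccl22*, 32 of the 35 of *Il12b*, 28 of the 109 of *Ccr7* and 15 maturation genes. Both chemokines bind Ccr4, and *Il12b* encodes a chain of interleukins 12 and 23. In the vas deferens *Ccl17* had 7 UMIs in 3 cells, a level of 88.5 UMIs per 1000000 against 118 in macrophages, so its 14.3-fold difference over all libraries (9.003 to 23.7) rested on that cell. *Ccl22* had 16 UMIs in 6 cells of the vas deferens. *Ccl5* had 114 UMIs in 6 cells, 72 of them in 1 cell of the vas deferens. One other cell of the vas deferens, with 667 UMIs, held 101 UMIs of 12 macrophage genes, all 14 UMIs of *C1qa* among them.

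Dendritic cells had no UMI of *Cxcl1* and *Cxcl2* and lower levels of *Ccl2*, *Ccl3* and *Ccl4* than macrophages, whereas *Cxcl16* stood at 1202 against 1249 UMIs per 1000000. *Cxcl2*, an attractant of neutrophils, had 0 UMIs in the 21 dendritic cells and 6627 UMIs in 88 of the 104 macrophages, at least 623-fold more by level. *Cxcl1*, a relative, had 0 and 2134 UMIs (at least 201-fold). *Ccl3* and *Ccl4*, chemokines that draw T cells and monocytes, had 3 and 31 UMIs in dendritic cells against 2463 and 10030, and *Ccl2*, which draws monocytes, 7 against 1174. A difference of this size held within the vas deferens library, where *Cxcl2* stood at 0 against 14096 UMIs per 1000000 and *Ccl4* at 392 against 28115. Drawn to 1000 UMIs, 0 of 18 dendritic cells, which allows up to 16.7%, and 73 of 89 macrophages (82.0%) kept a *Cxcl2* UMI, against 95 of 871 basal cells (10.9%) and 0 of 21, 88 of 104 and 193 of 917 without thinning. Of 26 chemokines measured, 11 of 20 considered were lower in dendritic cells than in macrophages, as were 153 of 1988 genes (7.7%), and 2 were higher. Without the vas deferens library, which leaves 2 dendritic cells, the 153 became 20.

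Cytokines followed only in part. *Il1b*, interleukin 1 beta, had 328 UMIs in 19 dendritic cells, a level of 3791 UMIs per 1000000 (3392 to 4225) against 5383 in macrophages, and in the vas deferens 4006 against 4455. *Tnf*, tumour necrosis factor, had 18 UMIs in 5 cells and was 9.36-fold lower than in macrophages (5.87 to 15.9). *Il1rn*, the interleukin 1 receptor antagonist, was 7.12-fold lower (4.02 to 13.9). Over 34 cytokines, 5 of 12 considered were lower in dendritic cells, where 7.7% of all genes were, and 0 higher. Sensors of microbes and phagocytic receptors were lower in 9 of 18 considered, among them *Tlr2*, with 0 UMIs against 139, and *Cd14*, with 51 against 1006. Of 19 dissociation response genes 7 were lower in dendritic cells than in macrophages and 0 higher, beside 7.7% and 2.92% of all genes. Whether the response to dissociation had a part in the chemokine levels was not tested.

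**Figure D5:**
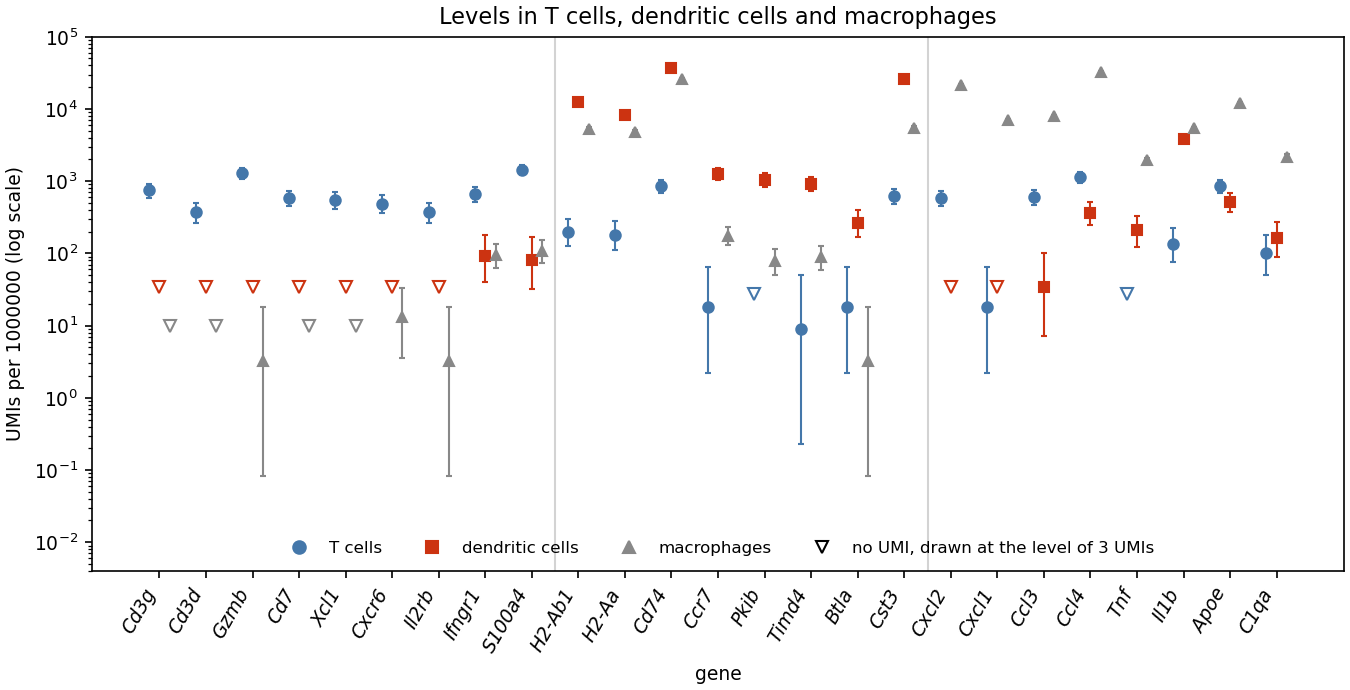
Levels (y axis, UMIs per 1000000, log scale) of 25 genes in all T cells, dendritic cells and macrophages, with exact Poisson 95% intervals for counting error. Open triangles mark genes without a UMI, drawn at the level of 3 UMIs, such as *Cxcl2* in dendritic cells, and *H2-Aa* stands at 8172 in dendritic cells, 4855 in macrophages and 181 in T cells.

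The macrophage list set both populations apart from macrophages. *Apoe*, a lipid carrier that basal cells also make in quantity, stood at 12029 UMIs per 1000000 in macrophages against 852 in T cells and 520 in dendritic cells, and *C1qa*, a complement component, at 2175 against 99.7 and 162. In T cells all 11 UMIs of *C1qa* lay in the 1 corpus cell already named, together with all 40 UMIs of *Ccl2*, all 42 of *Ccl12*, 45 of the 64 of *Cxcl2* and 64 of the 66 of *Ccl3*. Of 23 macrophage genes measured, 15 of 20 considered were lower in dendritic cells, as were 153 of 1988 genes (7.7%). In T cells 16 of 20 were lower, as were 266 of 2293 genes (11.6%). Among the genes lower in T cells were *Cxcl1* (384-fold lower in T cells, 106 to 3172), *Tnf* (at least 71.6-fold), *Il1b* (39.6-fold, 23.9 to 70.9) and *Rsad2*, an interferon-induced antiviral enzyme (37.5-fold, 18.9 to 87.1, and 193-fold, 34.6 to 7636, with the epididymal cells), and for *Il1b* all 15 UMIs of the T cells came from the vas deferens. Going the other way, 1 macrophage-labelled cell of the vas deferens held 18 UMIs of *Gzma*, the only ones of that population.

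Ligands and receptors were paired across the populations from 24 pairs chosen with the values known, and the counts describe transcripts in pooled tissue, not contacts. *Xcl1* had 60 UMIs in 12 T-labelled cells and 0 in dendritic cells and macrophages, and its receptor *Xcr1* 8 UMIs in 5 dendritic cells, 2 in macrophages and 0 in T cells. The T cells with *Xcl1* lay mostly in the corpus and cauda, with 9 of the 12 in the epididymis, and all 5 dendritic cells with *Xcr1* came from the vas deferens. *Cxcl16* had 104 UMIs in 20 of the 21 dendritic cells and 383 in 81 macrophages, and its receptor *Cxcr6* 54 UMIs in 15 T-labelled cells, by library 27, 18, 2 and 7, with none in dendritic cells. *Cxcr6* was 37.5-fold higher in T cells than in macrophages (13.8 to 142.7), or 50.7-fold with the epididymal cells (18.5 to 194).

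Costimulatory pairs had few UMIs. *Tnfsf9*, a ligand of activated T cells, had 24 UMIs in 12 dendritic cells and 102 in 34 macrophages. Its level was 277 in dendritic cells and 333 in macrophages. The receptor gene *Tnfrsf9* had 13 UMIs in 8 T-labelled cells, 13 in 7 macrophages and 7 in 1 dendritic cell. *Icosl* had 4 UMIs in 3 dendritic cells (level 46.2) and 11 in 10 macrophages (35.9), against 26 of *Icos* in T cells. *Cd40* had 41 UMIs in 13 dendritic cells (474) and 85 in 35 macrophages (277). *Cd40lg* had 3 UMIs in 1 T-labelled cell. These 3 ligand and receptor pairs were thus not particular to dendritic cells. *Il15*, which acts through *Il2rb*, had 39 UMIs in 22 macrophages and 3 in dendritic cells. *Flt3l*, the ligand of *Flt3*, had 5 UMIs in 5 T-labelled cells and 0 in dendritic cells and macrophages. *Il23a*, which pairs with *Il12b* into interleukin 23, had 4 UMIs in 1 macrophage and 0 in dendritic cells, and *Ccr4* 1 UMI in T cells, so the partners of *Il23r*, *Ccl17* and *Ccl22* were barely or not detected at this depth.

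Markers of other cell types were counted in both populations. Markers of B cells had 8 UMIs in 4 T-labelled cells and 0 in dendritic cells, those of stromal cells 4 and 2 UMIs, and those of endothelial cells 25 UMIs in 12 T-labelled cells and 2 in dendritic cells. By library the endothelial list stood at 127, 56.6, 99.8 and 484 UMIs per 1000000 in T-labelled cells of caput, corpus, cauda and vas deferens. Epithelial markers had 110 UMIs in 12 T-labelled cells (997 UMIs per 1000000) and 60 in 10 dendritic cells (694), muscle markers 29 UMIs in 10 T-labelled cells and 21 in 4 dendritic cells, and neutrophil markers 6 and 1. The macrophage list stood at 3018 UMIs per 1000000 in T cells and 2647 in dendritic cells, beside 29963 in macrophages and 21763 in basal cells, *Apoe* included. Ambient RNA removed by the authors came to 4.00% of the UMIs in T cells, 2.11% in dendritic cells and 3.23% in macrophages.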

How the data were processed

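The authors converted reads with bcl2fastq, extracted UMIs, aligned with HISAT2 2.0.4 to mm10 (the assembly GRCm38), counted UMIs on RefSeq genes with ESAT ignoring reads of several origins, merged UMIs 1 mismatch apart, kept barcodes within limits of total UMIs and subtracted ambient RNA with a modified SoupX. The deposited values are whole counts of UMIs for 16892 genes in 8880 cells, 26639701 in all, with a table of library, cluster and cell type. Here, counts were summed per population. A gene was considered with at least 20 UMIs over both populations and counted as higher at 4-fold, a population under 3 UMIs being raised to 3. For the highest of all populations, and between regions within T cells, 20 UMIs were needed in the T or dendritic cells. Ratios have exact conditional intervals, shares Clopper-Pearson intervals. Draws to 1000 UMIs used a fixed seed. The rule for named genes took those the study names, the 8 largest ratios per direction found in at least 20% of cells, up to 10 genes highest of all, and up to 5 genes with most UMIs per list. Genes outside it, single cells, the sets of T and dendritic cells and the ligand pairs were picked after their values were seen. Members and all 32 lists were chosen with earlier results of these data known. Doublets were called from simulated pairs, assuming 0.8% per 1000 cells, and kept. Alternatives covered thresholds, filters, libraries, cells with 1000 UMIs, averaging per cell and normalisation by thinning. Functions were tested on simulated data. Coordinates are GENCODE, promoters RefSeq. Figures were drawn with matplotlib 3.10.9; the other tools were scikit-learn 1.9.0, pandas 2.3.3, scipy 1.17.1, numpy 2.4.6 and Python 3.11.15.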

Additional observations from a re-analysis of the deposited data

How the results depend on the processing

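No paired analysis was possible because each region is 1 library and the values come from no test. Counts of genes are given in the order higher in T cells than in dendritic cells, the reverse, higher in T cells than in macrophages, the reverse, higher in dendritic cells than in macrophages, the reverse, highest in T cells, highest in dendritic cells. At 2-fold they were 345, 178, 537, 630, 233, 545, 27 and 28, and at 8-fold 46, 58, 59, 103, 18, 53, 2 and 2. Leaving out each library in turn gave 12 to 126, 35 to 92, 105 to 125, 187 to 244, 36 to 56, 20 to 169, 0 to 3 and 0 to 8, where without the vas deferens, and with it 19 of the 21 dendritic cells, the first 2 were 12 and 35, and without the corpus the first was 84. In the vas deferens alone, the first 4 were 32, 46, 50 and 113 and the last 2 were 0 and 0. With at least 10 UMIs a gene genes above T cells numbered 163 in dendritic cells, genes above macrophages 384 in T cells and 104 in dendritic cells, and with at least 50 UMIs the first 3 counts were 41, 42 and 39 and that of dendritic cells above macrophages 18. Averaging over cells left 3 genes highest in T cells. Of the alternatives added after seeing the data, T cells with a CD3 UMI gave 98 genes above dendritic cells and 12 highest of all, T cells of the epididymis 96 and 11, and leaving out basal macrophages gave 17 and 10. Among cells with at least 1000 UMIs, 30.0% of T cells came from the vas deferens. The share of T cells with a CD3 UMI was 46.2% at 500 UMIs, 43.3% for at least 2 UMIs, 22.2% in the vas deferens and 57.9% to 85.7% with each library left out, and that of dendritic cells with a class II UMI was 100% to 100%, a ceiling that tells nothing of stability. The log2 ratio of *Ccl2* in T cells over dendritic cells turned to -0.21 in the vas deferens, -1.03 without the corpus, -1.0015 for cells with CD3 and -1.53 without cells of 10 or more macrophage genes, from 2.16 over all libraries, and ranged from -1.03 to 2.39 with each library left out. That of *Ccl7* turned to -0.22 without the corpus, -0.19 for cells with CD3 and -0.73 without macrophage gene cells, from 4.11 (-0.22 to 4.33 with each library left out), and that of *Ccl17* in dendritic cells over macrophages to -0.41 in the vas deferens and -0.086 without the cauda, from 3.84 (-0.086 to 8.76). The corpus cell with macrophage genes carries all *Ccl2* of the T cells, and the cauda cell most *Ccl17* of the dendritic cells. The 345 ratios of named genes were taken again wherever an alternative gave a value. Of these repeated values 3069 stayed within the counting interval of the ratio and 596 did not. Another 9, all of *Ccl2*, *Ccl7* and *Ccl17*, turned the sign of a ratio of at least 4-fold. Sign changes of smaller ratios were not counted apart. Of the counts and shares that answer a comparison 103 stayed within their limits and 53 did not. Populations of 44 and 21 cells limit all levels near 3 UMIs.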
